A study of Mus musculus with 12 samples.

Results

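The RB pocket proteins and the DREAM and MMB complexes were examined through 10 genes, chosen by name from a deposited table of 26301 mouse genes. They were the pocket proteins Rb1, Rbl1 and Rbl2, the MuvB core subunits Lin9, Lin37, Lin52, Lin54 and Rbbp4, and the activators Mybl2 and Foxm1. RNA was measured in 12 mouse liver libraries, 4 from control livers, 4 from liver tumors labelled DKO and 4 from liver tumors labelled TKO. The control livers carried a wild-type genotype and came from adult mice. Spontaneous tumors of adult mice with an Alb-Cre-E2f7 E2f8 knockout made up the DKO group, and those with an Alb-Cre-Rb1 E2f7 E2f8 knockout the TKO group. Tissue was taken from ageing mice at the end of life, on an FVB background, and each group had 4 livers. Alb-Cre acts through the albumin promoter, which the study describes as specific to hepatocytes. Tumor cells in which Cre was never active keep their alleles. Control tissue was liver without tumor, so genotype and tumor growth cannot be told apart in a comparison with it. Total counts per library ran from 9165812 in control 2 to 16424973 in DKO 1.

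Pocket proteins bind E2F transcription factors and hold cell cycle genes silent in resting cells, and phosphorylation by cyclin-dependent kinases releases them. In quiescence p130 (Rbl2) or p107 (Rbl1) joins E2F4, a DP partner and the MuvB core to form DREAM, which represses cell cycle genes. When cells enter the cycle, the MuvB core leaves the pocket protein and binds B-MYB (Mybl2) and later FOXM1, and this MMB complex activates genes of G2 and mitosis. Hepatocytes of the adult liver are mostly quiescent.

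The deleted genes were examined first. Rb1 (Entrez 19645, chr14:73583480-73725629 in NCBIM37, minus strand) stood at 10.7, 6.52, 8.27 and 7.69 CPM (counts scaled to library size by TMM) in the control livers, at 11.3, 8.38, 7.99 and 8.37 CPM in tumors labelled DKO and at 4.22, 5.47, 4.91 and 3.21 CPM in TKO tumors. Each library labelled TKO lay below each of the other 8, while the control and DKO values overlapped. E2f7 was low everywhere, with 7 to 15 counts in the controls, 4 to 24 in the DKO group and 9 to 14 in the TKO group. E2f8, the other atypical E2F, stood at 4.52, 8.97, 5.96 and 5.49 CPM in control livers, at 7.59, 45.6, 11.4 and 17.3 CPM in DKO tumors and at 26, 13.8, 52.2 and 12.3 CPM in TKO tumors. E2f8 was not lower in the tumors, and E2f7, with few counts, overlapped between the groups. For these genes the counts do not mark the labelled deletion, and DKO and TKO below stand for the labels of the libraries. Counts are summed over all exons of a gene and do not show whether reads came from the deleted part.

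By edgeR's quasi-likelihood test with Benjamini-Hochberg adjustment, Rb1 differed by a log2 fold change of −0.90 ± 0.22 (SE, adjusted p = 0.122) between TKO and control and of −1.01 ± 0.21 (adjusted p = 0.281) between TKO and DKO. These fits correspond to 53.6% and 49.5% of the other group's level, and neither passed the threshold of 0.05. DESeq2 gave −0.92 with an adjusted p of 0.00991 and −1.02 with an adjusted p of 0.00731, so the call of Rb1 depended on the tool. Between DKO and control the difference was 0.11 ± 0.21 (edgeR adjusted p = 0.775). E2f8 had log2 fold changes against control of 1.72 ± 0.58 in DKO and 2.08 ± 0.59 in TKO (edgeR adjusted p = 0.103 and 0.146). Of E2f7 and E2f8, DESeq2 called 1 in each of these comparisons (10.4% and 3.49% of all its tested genes). The exons of Rb1 share 896 bases with the antisense genes Lpar6 and Rcbtb2, whose own log2 fold changes in TKO were −0.34 and −0.25 against control and −0.37 and 0.24 against DKO, and since the strand setting of the counting is not given, reads there cannot be assigned to a strand. In bulk tissue, fewer cells of a type and less RNA per cell cannot be told apart.

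Rbl2 (Entrez 19651, chr8:93593956-93647743, plus strand) encodes p130, the pocket protein of quiescent DREAM. Its level was 34.4, 33.3, 33.8 and 36.0 CPM in control livers, 16.9, 18, 19.8 and 21.2 CPM in DKO tumors, and 15.5, 15.7, 29.5 and 22.7 CPM in TKO tumors. The controls lay close together and above all 8 tumors, and TKO 3 was the tumor nearest to them. Rbl2 fell by 0.86 on the log2 scale in DKO against control (SE 0.19, n = 4 per group, edgeR adjusted p = 0.0460), which left 55.2% of the control level. It was the only call among the 9 tested members in that comparison, where 2.42% of 13882 tested genes were called. Between TKO and control the log2 fold change was −0.72 ± 0.19 (edgeR adjusted p = 0.132), and between TKO and DKO it was 0.13 ± 0.19 (adjusted p = 0.856). DESeq2 called Rbl2 in DKO and in TKO against control (adjusted p = 0.00243 and 0.0241).

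The Rbl2 call in DKO depended on the setting, while its direction was the same in all 21 alternatives. It was kept in 11 of them, DESeq2, voom (adjusted p = 0.0112), the 8 libraries alone (adjusted p = 0.0127), the replicate block (adjusted p = 0.0308) and each TKO library left out among them. It was lost when any of control 1 to 4 or DKO 1 to 4 was left out, with edgeR adjusted p from 0.0519 to 0.134 and log2 fold changes from −0.91 to −0.82. Over all tested genes in DKO against control, edgeR then called 166, 0, 0 and 5 without control 1 to 4. Without DKO 1 to 4 it called 5, 7, 409 and 7, against 336 with all libraries. The Rbl2 call was also lost with total counts as the scaling (edgeR adjusted p = 0.140) and with a covariate from sex-linked genes (edgeR adjusted p = 0.104). Over all 21 alternatives the log2 fold change of Rbl2 in DKO lay between −0.91 and −0.75. The covariate had no sex difference to adjust for, since Xist had 1 to 6 counts in each library. It was highest in DKO 1, TKO 1 and DKO 2, where the Y-linked gene Kdm5d was lowest. Without TKO 3 the difference between TKO and control became −0.94 (edgeR adjusted p = 0.0204). Exons of Rbl2 share 693 bases with the antisense gene Aktip, whose own log2 fold change was 0.26 in DKO and −0.03 in TKO against control.

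Rbl1 encodes p107, a pocket protein that is itself an E2F target and is made by dividing cells. It measured 6.01, 1.97, 3.46 and 9.59 CPM in control livers, 7.21, 11.2, 9.70 and 6.54 CPM in DKO tumors and 12.9, 11.2, 4.68 and 10.2 CPM in TKO tumors. Control 4 was above 3 of the 8 tumors and TKO 3 was below 2 of the 4 controls, so the groups overlapped. The log2 fold changes were 0.70 ± 0.42 for DKO and 0.88 ± 0.42 for TKO against control (edgeR adjusted p = 0.335 and 0.331), and neither passed. With a library left out they ran from 0.44 to 1.16 in DKO and from 0.62 to 1.33 in TKO.

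**Figure D1:**
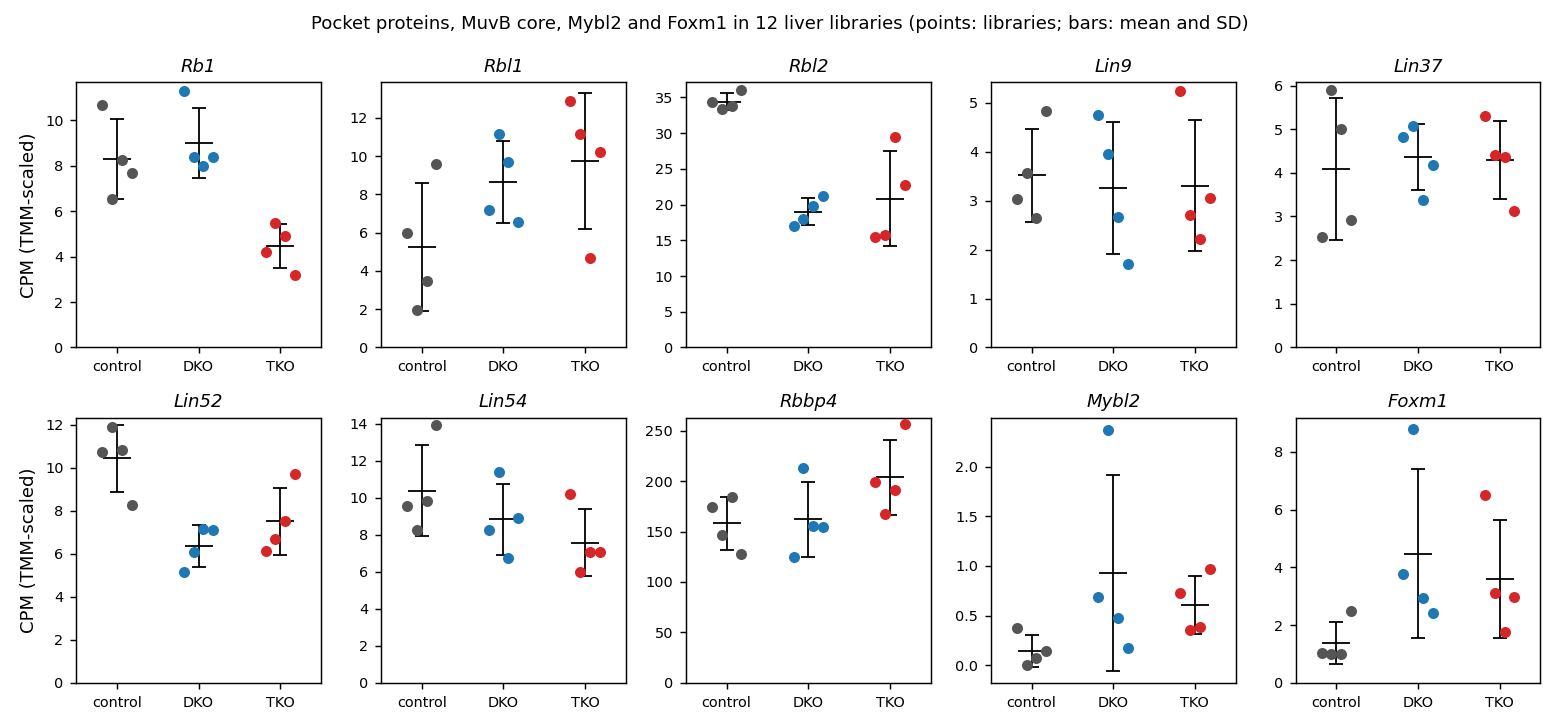
CPM (TMM-scaled, vertical axes from near 0) of the 10 genes in each library, with points for libraries and bars for the mean and SD of 4 libraries per group. Rbl2 is above 33 CPM in the 4 control livers and below 30 CPM in the 8 tumors, and Rb1 is lowest in the 4 libraries labelled TKO.

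The balance of p107 and p130 transcripts was taken as the log2 ratio of Rbl1 to Rbl2 within each library, which needs no scaling between libraries. It was −2.49, −3.99, −3.24 and −1.89 in control livers, −1.22, −0.69, −1.02 and −1.68 in DKO tumors and −0.26, −0.49, −2.62 and −1.14 in TKO tumors. All 4 DKO values were above all 4 control values, and TKO 3 fell within the control range. The mean difference between DKO and control was 1.75 (two-sided exact permutation p = 0.0286, the smallest that 70 assignments allow, and 0.0857 after adjustment over 3 comparisons). Between TKO and control it was 1.78 (exact permutation p = 0.0857, adjusted 0.129), and between TKO and DKO 0.02 (exact permutation p = 0.943). No ratio comparison passed after adjustment.

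Per kilobase of exon, Rbl2 made up 69.2% ± 6.33 (SD, n = 4) of the summed pocket protein level in control livers, 48.2% ± 5.16 in DKO tumors and 55.1% ± 13.6 in TKO tumors. The share of Rbl1 was 11.7% ± 6.32, 25.3% ± 5.57 and 31.0% ± 12.6 in the same order, and that of Rb1 19.1% ± 3.13, 26.5% ± 5.09 and 13.9% ± 3.43. The sum itself was 7.19 ± 0.848 CPM per kb in control livers, 5.67 ± 0.171 in DKO and 5.36 ± 0.377 in TKO.

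**Figure D2:**
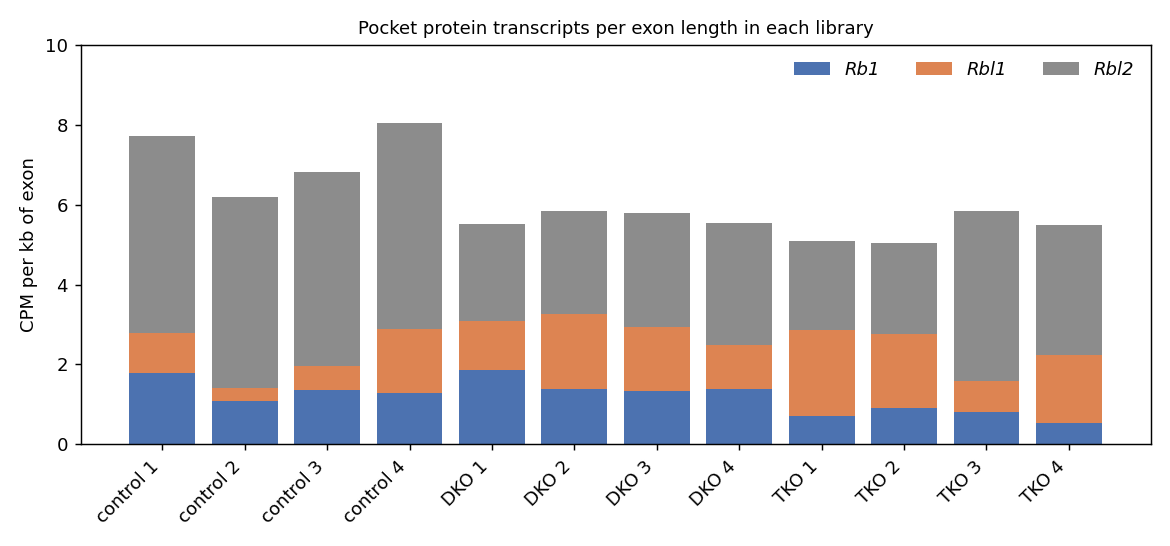
Stacked bars of Rb1, Rbl1 and Rbl2 in CPM per kb of exon (vertical axis from 0) for the 12 libraries. The Rbl2 share is 64.0% to 77.2% in control livers, 44.2% to 55.1% in DKO tumors and 43.8% to 72.6% in TKO tumors.

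Of the MuvB core, Lin52, the subunit through which the core contacts the pocket protein, gave the largest difference from control in both tumor groups. Its level was 10.8, 11.9, 10.8 and 8.27 CPM in control livers, 5.14, 6.09, 7.16 and 7.13 CPM in DKO tumors and 6.15, 6.68, 7.52 and 9.70 CPM in TKO tumors. All DKO values were below all control values, while TKO 4 overlapped the controls. The log2 fold change was −0.71 ± 0.19 in DKO (edgeR adjusted p = 0.0656) and −0.47 ± 0.19 in TKO (adjusted p = 0.246) against control, and DESeq2 called the first (adjusted p = 0.0158). Lin54, which binds CHR elements in DNA, ranged from 8.24 to 13.9 CPM in control livers, from 6.74 to 11.4 in DKO and from 5.97 to 10.2 in TKO. Its log2 fold changes against control were −0.24 in DKO and −0.46 in TKO. With a library left out they ran from −0.38 to −0.066 and from −0.64 to −0.28.

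Lin9 and Lin37, a scaffold and a repressor subunit of the core, were low and overlapped in all groups. Lin9 ranged from 1.71 to 5.25 CPM and Lin37 from 2.52 to 5.90 CPM over the 12 libraries, their log2 fold changes were between −0.11 and 0.10 in the 3 comparisons, and their signs changed with the scaling or the library left out. Rbbp4, a histone-binding subunit that other chromatin complexes share, ranged from 128 to 184 CPM in control livers, from 124 to 213 in DKO and from 168 to 256 in TKO. Its log2 fold change between TKO and control was 0.37 ± 0.20 (edgeR adjusted p = 0.384). The exons of Rbbp4 share 1578 bases with antisense genes, and those of Lin37 share 3.

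Mybl2, the MYB protein of MMB, had 5, 0, 1 and 2 counts in control livers, 9, 30, 8 and 3 in DKO tumors and 12, 5, 5 and 13 in TKO tumors. DKO 2 held the most, and 6 of the 8 tumors exceeded the highest control in CPM. The gene did not pass the filter on low counts and was therefore not in the edgeR fit. As log2 CPM with a prior count of 2, the mean difference was 1.63 between DKO and control and 1.45 between TKO and control (exact permutation p = 0.0571 for each, 0.0857 after adjustment over 3). Without the filter, edgeR gave log2 fold changes against control of 2.48 ± 0.84 (adjusted p = 0.149) for DKO and 1.91 ± 0.86 (adjusted p = 0.428) for TKO. DESeq2 gave 2.56 and 1.96 (DESeq2 adjusted p = 0.0524 and 0.251). These tests were chosen after the low counts had been seen.

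Foxm1, the forkhead factor that joins MMB in G2, stood at 1.04, 0.984, 1.02 and 2.49 CPM in control livers, at 3.76, 8.78, 2.96 and 2.42 CPM in DKO tumors and at 6.51, 3.13, 1.76 and 2.98 CPM in TKO tumors. Control 4 was above the other controls and reached into the tumor range, and 6 of the 8 tumors were above it. The log2 fold change was 1.67 ± 0.52 in DKO (edgeR adjusted p = 0.0867) and 1.37 ± 0.52 in TKO (adjusted p = 0.225), and −0.30 ± 0.49 between TKO and DKO (adjusted p = 0.873). DESeq2 called Foxm1 in DKO (adjusted p = 0.0238). Its exons share 144 bases with a gene on the same strand.

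**Figure D3:**
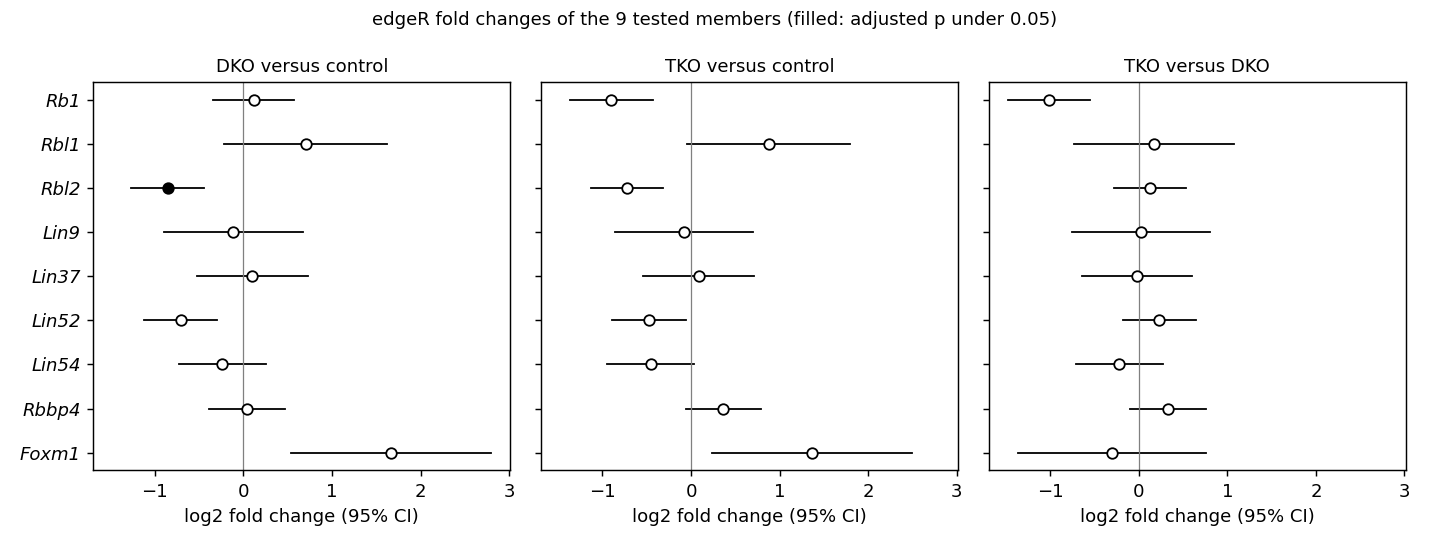
Log2 fold changes with 95% confidence intervals (horizontal axes) of the 9 tested genes in 3 comparisons, with filled points for an edgeR adjusted p under 0.05. Rbl2 in DKO against control, at −0.86, is the only filled point.

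Counted together, 1 of the 9 tested members was called in DKO against control, 0 in TKO against control, where 0.0864% of tested genes were called, and 0 in TKO against DKO, where 0% were called. At an unadjusted p under 0.05 the edgeR counts were 3, 4 and 1, against 3329, 2259 and 1250 (24%, 16.3% and 9%) of all tested genes. DESeq2 called 3, 2 and 1 members, with 10.4%, 3.49% and 0.398% of its tested genes called. Groups did not overlap for 2, 2 and 1 members, beside 16.2%, 7.67% and 4.87% of tested genes. The members' median log2 fold change was 0.04, −0.08 and 0.03, and that of all tested genes 0.02, 0.02 and 0.01. The comparisons with control share the same 4 control livers.

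Levels were compared between genes per kilobase of exon. In control livers the order was Rbbp4 (18.1 ± 2.96 CPM per kb, SD, n = 4), Rbl2 (4.94 ± 0.169), Lin52 (4.87 ± 0.721), Lin37 (2.95 ± 1.17), Lin54 (1.78 ± 0.421), Rb1 (1.38 ± 0.291), Lin9 (1.10 ± 0.297), Rbl1 (0.877 ± 0.557), Foxm1 (0.251 ± 0.134) and Mybl2 (0.0316 ± 0.0348). Only Rbbp4 and Mybl2 were separated from their neighbours in this order, and the ranges of all other neighbours overlapped.

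The partners of DREAM comprise E2f4, E2f5, the DP proteins Tfdp1 and Tfdp2, the kinase Dyrk1a, Rbbp7 and Mybl1. Of these 7, edgeR called 0 in each comparison (2.42%, 0.0864% and 0% of all tested genes). At an unadjusted p under 0.05 there were 2, 3 and 1 (24%, 16.3% and 9% of all tested genes), and DESeq2 called 1, 1 and 0 (10.4%, 3.49% and 0.398% of all). Tfdp1 stood at 9.05, 9.10, 10.1 and 11.1 CPM in control livers and at 17.4, 17.7, 11.6 and 19.4 CPM in TKO tumors, without overlap (log2 fold change 0.75 ± 0.17, edgeR adjusted p = 0.118). Tfdp2 had a log2 fold change of −0.46 ± 0.14 in DKO (adjusted p = 0.0830).

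The control of pocket proteins was read through 16 genes, 6 cyclins, 3 kinases and 7 inhibitors, and 3 of the cyclins also stand in the target lists below. Of the 16, edgeR called 2 in DKO against control, both higher (2.42% of all tested genes), and 0 in the other comparisons (0.0864% and 0% of all). At an unadjusted p under 0.05 there were 5, 7 and 4 (24%, 16.3% and 9% of all tested genes), and DESeq2 called 4, 4 and 1 (10.4%, 3.49% and 0.398% of all). Cdkn1a, which encodes the inhibitor p21, was at 2.91 to 13.5 CPM in control livers and at 17.5 to 41.7 CPM in DKO tumors (log2 fold change 2.43 ± 0.47, edgeR adjusted p = 0.0389). Cdkn2c, which encodes p18, was at 1.83 to 3.44 CPM and at 6.98 to 12.9 CPM in the same groups (2.13 ± 0.40, adjusted p = 0.0376). Both calls were lost when control 1, 2 or 3 or DKO 1, 2 or 4 was left out, and that of Cdkn2c also without control 4 or TKO 1. Over all tested genes, 0 to 166 were called in DKO against control in these fits, against 336 with all libraries. In TKO against control Cdkn1a and Cdkn2c had log2 fold changes of 1.60 and 2.09, which did not pass. Cdk4, a kinase of pocket proteins, was at 28.8 to 34.9 CPM in DKO tumors and at 45.6 to 63.4 CPM in TKO tumors, without overlap (0.73 ± 0.13, edgeR adjusted p = 0.281).

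DREAM targets of G1 and S phase were read through 26 genes of replication and nucleotide synthesis. Their log2 fold change was above 0 for 23 in DKO and 25 in TKO against control (51.6% and 52.5% of all tested genes). The medians were 0.68 and 1.00. Of the 26, edgeR called 0 in each of the 3 comparisons (2.42%, 0.0864% and 0% of all tested genes). At an unadjusted p under 0.05 there were 4, 13 and 1 (24%, 16.3% and 9% of all tested genes), and DESeq2 called 2, 1 and 0 (10.4%, 3.49% and 0.398% of all). Rrm2 (2.12 ± 0.57, adjusted p = 0.0656) and Uhrf1 (2.23 ± 0.76, adjusted p = 0.106) had the highest log2 fold changes in DKO. In TKO the highest were Uhrf1 (1.81), Gins2 (1.55) and Chaf1b, and Tk1 was lowest (−0.03). Between TKO and DKO 21 of the 26 had a log2 fold change above 0 (51.2% of all tested genes), with a median of 0.21.

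Targets of MMB and FOXM1 in G2 and mitosis were read through 29 genes. All 29 had a log2 fold change above 0 against control in DKO and in TKO (51.6% and 52.5% of all tested genes). The medians were 1.84 and 1.31. In DKO, edgeR called 6 of the 29, all higher (2.42% of all tested genes), 25 had an unadjusted p under 0.05 (24% of all), DESeq2 called 22 (10.4% of all), and 20 did not overlap with the controls (16.2% of all). Mki67, a marker of proliferation, was at 0.678 to 2.00 CPM in control livers, 4.30 to 23.8 CPM in DKO and 2.76 to 10.3 CPM in TKO. Its log2 fold change was 2.89 ± 0.59 in DKO (edgeR adjusted p = 0.0425), followed by that of Hmmr (a fold change of 5.65 without log2, adjusted p = 0.0495) and Ccna2 (log2 fold change 2.41 ± 0.59, adjusted p = 0.0521). In TKO against control edgeR called 0 (0.0864% of all), with 22 at an unadjusted p under 0.05 (16.3% of all), 5 by DESeq2 (3.49% of all) and 6 that did not overlap (7.67% of all). Between TKO and DKO 26 of the 29 were lower in TKO with a median of −0.54, and 3 were higher (51.2% of all tested genes). Of the 29, 0 were called by edgeR (0% of all), 0 had an unadjusted p under 0.05 (9% of all) and DESeq2 called 0 (0.398% of all). The 6 calls in DKO became 0 when any of control 1 to 4, DKO 1, DKO 2 or DKO 4 was left out, 2 without TKO 1 and 15 without TKO 3. Over all tested genes, edgeR called 336 in DKO with all libraries and 166, 0, 0 and 5 without control 1 to 4. It called 5, 7 and 7 without DKO 1, DKO 2 and DKO 4, 96 without TKO 1 and 651 without TKO 3.

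Across libraries, 5 pairs of members were compared as log2 CPM. Over the 12 livers Foxm1 and Rbl1 had a Pearson r of 0.811 (permutation p = 0.00036, adjusted over 5 pairs 0.00180), Mybl2 and Foxm1 one of 0.817 (p = 0.00154 by permutation, adjusted 0.00385) and Mybl2 and Rbl1 one of 0.731 (p = 0.00482 by permutation, adjusted 0.00803). Spearman's rho was 0.895, 0.804 and 0.671 (permutation p = 0.00026, 0.0026 and 0.0213). These genes had higher means in tumors than in controls, so the values over 12 livers include the difference between groups. Over the 8 tumors r was 0.730, 0.786 and 0.497 (exact permutation p = 0.0164, 0.0280 and 0.186), and none passed after adjustment (0.0701, 0.0701 and 0.232). Without the 2 livers farthest from the median of the first gene, r was 0.823 for Foxm1 and Rbl1 (adjusted permutation p = 0.0188), and the relations of Mybl2 with Foxm1 (0.624) and with Rbl1 (0.577) no longer passed after adjustment over these 10 livers.

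Control livers and tumors did not overlap in Rbl2, so its pairs are given within the 8 tumors. Rbl1 and Rbl2 had r = −0.758 (exact permutation p = 0.0426, adjusted 0.0710) and rho = −0.762 (exact permutation p = 0.0368). This r was −0.212 without the 2 farthest tumors and −0.138 with total counts as the scaling, so its size depended on those tumors and on the scaling. Mybl2 and Rbl2 had r = −0.229 (exact permutation p = 0.595).

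The genes most alike in pattern, by Pearson r of log2 CPM over the 12 libraries, were Cpb2 (0.919), Klhl7 (0.887) and Cfhr2 (0.865) for Rb1, Diaph3 (0.959), Kif11 (0.921) and Sav1 (0.916) for Mybl2, and Ccna2 (0.979), Alg8 (0.967) and Ttk (0.965) for Foxm1.

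Promoter sequences, 250 bases before to 50 after the gene start, were taken from a table of RefSeq promoters (GRCm38.p6) that holds 7 of the 10 genes, with 8 entries since Lin54 had 2. Rb1, Lin9 and Foxm1 had no entry in that table. The E2F letters TTTCCCGC, TTTGGCGC, TTTCGCGC or TTTGCCGC, on either strand, occurred in 2 of the 8 and in 2.26% of all 32851 promoters. The CHR letters TTTGAA or TTCGAA occurred in 4 of the 8 and in 19.2% of all. Among targets, the E2F letters were in 10 of 22 G1 and S promoters and in 1 of 26 G2 and mitosis promoters, and the CHR letters in 2 and 20. A match is a description of letters and not a bound site.

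The promoters of Rbl1 and Mybl2 are shown because both genes correlated with Foxm1 over the 12 livers. Capitals mark the E2F letters in Rbl1 (chr2:157204485-157204784, minus strand), which begin 18 bases before the gene start. In Mybl2 (chr2:163054385-163054684, plus strand) they mark the core GGCGGGA, which begins 13 bases before the start and was added to the search after the sequences had been read. That core occurred in 4 of the 8 member promoters, in 8 of the 22 and 9 of the 26 target promoters and in 11.3% of all, and 1 of its 2 matches in Lin52 overlaps the E2F letters. Both sequences are written 5′ to 3′ on the strand of the gene.
Rbl1 promoter: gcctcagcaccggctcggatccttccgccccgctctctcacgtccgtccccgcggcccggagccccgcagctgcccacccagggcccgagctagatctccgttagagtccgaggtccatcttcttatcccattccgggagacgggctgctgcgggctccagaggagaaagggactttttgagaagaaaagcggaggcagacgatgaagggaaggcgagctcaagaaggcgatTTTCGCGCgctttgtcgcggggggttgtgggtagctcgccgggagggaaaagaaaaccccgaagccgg
Mybl2 promoter: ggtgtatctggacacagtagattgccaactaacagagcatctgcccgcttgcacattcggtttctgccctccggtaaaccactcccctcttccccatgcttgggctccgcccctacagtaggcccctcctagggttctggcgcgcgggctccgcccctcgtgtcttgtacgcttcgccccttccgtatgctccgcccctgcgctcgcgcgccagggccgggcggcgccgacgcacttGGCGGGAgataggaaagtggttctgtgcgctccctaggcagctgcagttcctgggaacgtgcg

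Cell type markers were read beside these results. Albumin, the hepatocyte marker, took 6.57% to 10.1% of counts in control livers, 11.9% to 22.7% in DKO tumors and 4.82% to 18.9% in TKO tumors. Of the 8 genes on that list, 5 had a log2 fold change above 0 and 3 below in DKO against control, from −0.86 for Ttr to 0.92 for Alb, and in TKO 4 were above and 4 below, from −0.82 for Cps1 to 0.44 for Apoa1. Over all lists edgeR called 0 markers (2.42% of all tested genes in DKO), and DESeq2 called 1 hepatocyte gene, lower, and 1 endothelial gene, higher, in DKO (10.4% of all). The median log2 fold changes in DKO and in TKO against control were 0.11 and −0.02 for 8 hepatocyte genes, 0.28 and 0.49 for 6 stellate and fibroblast genes, −0.47 and −0.16 for 5 macrophage genes, 1.03 and 0.14 for 4 biliary genes, −0.78 and −0.09 for 5 lymphocyte genes and 0.31 and 0.47 for 3 erythroid genes. At an unadjusted p under 0.05, edgeR counts over the hepatocyte, endothelial, macrophage and lymphocyte lists were 1 (lower), 1 (higher), 0 and 1 (lower) in DKO (24% of all tested genes) and 0, 1 (higher), 1 (lower) and 0 in TKO (16.3% of all).

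The 5 endothelial genes, led by Kdr, had medians of 0.24 and 0.46. Their summed level was 131, 83.2, 86.8 and 136 CPM in control livers, 127, 117, 148 and 180 CPM in DKO tumors and 141, 129, 211 and 140 CPM in TKO tumors. Their log2 fold changes in DKO ran from −0.42 ± 0.28 for Stab2 to 1.24 ± 0.34 for Pecam1 (edgeR adjusted p = 0.398 and 0.0693), and Pecam1 was at 69.5 CPM in DKO 4 and at 21.8 to 30.1 CPM in the other DKO tumors. Alb, Pecam1, Adgre1, Col1a1, Krt19 and Cd3e were detected in each library. The part of these cell types in the results for the pocket proteins was not tested.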

How the data were processed

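Poly(A) RNA of 12 livers was sequenced on a SOLiD instrument. The authors mapped the reads to mm9 with BWA, counted them per gene with FeatureCounts and deposited raw counts. Software versions and the strand setting were not given in the sources used here. Symbols were matched for 24191 of 26301 Entrez identifiers. edgeR 4.0.16 (R 4.3.3) was run with TMM scaling, filterByExpr (13882 genes kept), all 12 libraries and a mean per group. DESeq2 1.42.0 and limma 3.58.1 were alternatives, and permutation tests used SciPy 1.17.1. Counts were simulated from the edgeR fit for DKO against control. With 200 changed genes, 19.2% of DESeq2 calls and 5.05% of edgeR calls were false. With 0 changed genes DESeq2 called 8 and edgeR 0. Exon lengths came from GENCODE vM1 and promoters from RefSeq. The members and gene lists were chosen with earlier results of these data known. Named genes were the members, E2f7, E2f8, Mki67, the 3 highest and lowest fold changes of each list, those most alike to Rb1, Mybl2 and Foxm1, and defining markers. The design set all 5 correlations over 12 livers, and for the 2 pairs with Rbl2 the text gives the 8 tumors instead because the groups did not overlap. Their values over 12 livers stand with the processing alternatives.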

Additional observations from a re-analysis of the deposited data

Results flagged for a closer look

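Within the groups of 4 libraries, 33 sets of values were examined for a library far from its group, and 2 stood out, while chance marks about 1 in 20 groups. Rb1 was at 11.3 CPM in DKO 1, with the remaining DKO tumors between 7.99 and 8.38 CPM. Foxm1 was at 2.49 CPM in control 4, and the other control livers lay between 0.984 and 1.04 CPM. By edgeR no difference between TKO and DKO passed for a member, while DESeq2 called Rb1 (adjusted p = 0.00731).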

How the results depend on the processing

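Over 564 alternative fold changes of the 9 tested members, 515 kept direction and side of the threshold, 10 lost a call, 9 gained one and 30 changed sign, all of uncalled values, and the cause was not tested. The ratio of Rbl1 to Rbl2 moved by less than 1 SD between libraries in its 27 alternatives, with 1.39 to 2.09 in DKO, 1.41 to 2.27 in TKO and −0.27 to 0.52 between TKO and DKO when a library was left out, and so did the difference of Mybl2 in the 30 alternatives added after seeing the data. Members called in DKO, 1 in the main setting, were 3 with DESeq2, with voom and at an adjusted p under 0.1, and 0 with total counts, with the sex-linked covariate and at the low end of the range of 0 to 1 with a library left out. In TKO against control, 0 became 2 with DESeq2, 1 with voom and 0 to 1 with a library left out, and in TKO against DKO 1 with DESeq2. G1 and S targets called in DKO, 0 before, were 2 with DESeq2, with the 8 libraries alone and with voom, 1 at an adjusted p under 0.1 and 0 to 1 with a library left out, and in TKO 1 with DESeq2 and 0 to 1 with a library left out. The 6 G2 and mitosis targets called in DKO became 22 with DESeq2, 23 with voom, 20 at an adjusted p under 0.1, 15 with the 8 libraries alone, 10 with the replicate block, 1 with total counts, 0 with the sex-linked covariate and 0 to 15 with a library left out. In TKO, 0 became 5 with DESeq2, 1 at an adjusted p under 0.1 and 0 to 3 with a library left out. Signs changed for Lin9 in DKO with voom (0.10) and in TKO with total counts (0.0592) and voom (0.10), for Lin37 in DKO with the covariate (−0.00011) and between TKO and DKO with total counts (0.0818), voom (0.0264) and the covariate (0.0642), for Rbbp4 in DKO with voom (−0.0479) and for Foxm1 between TKO and DKO with the covariate (0.10). With a library left out, ranges that crossed 0 were −0.025 to 0.26 for Rb1 in DKO, −0.0825 to 0.25 for Rbl2 between TKO and DKO, −0.36 to 0.10, −0.41 to 0.11 and −0.29 to 0.27 for Lin9, −0.077 to 0.32, −0.0926 to 0.30 and −0.13 to 0.11 for Lin37 (DKO, TKO and TKO against DKO), −0.12 to 0.13 for Rbbp4 in DKO and −0.76 to 0.25 for Foxm1 between TKO and DKO.

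Correlations over 12 livers, with the 2 pairs of Rbl2 at −0.643 (Mybl2) and −0.669 (Rbl1) including the difference between groups, no longer passed after adjustment in 26 of 35 alternatives. Over the 8 tumors r was 0.786 for Mybl2 and Foxm1, 0.497 for Mybl2 and Rbl1, 0.730 for Foxm1 and Rbl1, −0.229 for Mybl2 and Rbl2 and −0.758 for Rbl1 and Rbl2. In the same order, rho over the tumors was 0.690, 0.452, 0.762, −0.143 and −0.762, r without the 2 farthest tumors 0.495, 0.348, 0.712, −0.124 and −0.212, and r over the tumors with total counts 0.789, 0.501, 0.695, −0.0438 and −0.138, these 3 chosen after seeing the data. Without the 2 farthest livers r was 0.624, 0.577, −0.596 (Mybl2 and Rbl2) and −0.561 (Rbl1 and Rbl2), and with total counts −0.439 and −0.374 for the pairs of Rbl2.

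Over all tested genes, edgeR called 336 in DKO (196 higher and 140 lower), 12 in TKO (7 and 5) against control and 0 between TKO and DKO. The counts in DKO and TKO were 1518 and 507 with DESeq2 (56 between TKO and DKO), 1804 and 97 with voom, 1460 and 80 at an adjusted p under 0.1, 759 and 9 with the 8 libraries alone, 59 (52 higher, 7 lower) and 9 (8 higher, 1 lower) with total counts, 294 and 22 without the filter, 6 (6 higher) and 5 (3 higher) with the covariate, and 0 to 651 and 0 to 231 with a library left out. Total counts moved the median log2 fold change of all genes to 0.07, 0.17 and 0.11 in the 3 comparisons. With the replicate block, 509 and 1 genes were called, and the numbers were not taken to pair the libraries, since the labels give no pairing and same-numbered libraries of different groups correlated at −0.174 to 0.370, while 6 of 12 were closest to their own number. Libraries of different groups whose columns share a letter, the meaning of which is not given, correlated at −0.234 to 0.235. Control 2 and control 3, whose columns also share a letter, were more alike (chi-square per degree of freedom 18.4) than the other pairs of controls (57.9 to 68.5), so the 4 controls may not be equally independent. By the same measure, pairs of DKO tumors stood at 79.4 to 255 and pairs of TKO tumors at 63.5 to 341. The pairs with DKO 4 were at 129 to 255 and those with TKO 4 at 174 to 341. The covariate from sex-linked genes had no sex difference to adjust for. Xist had 1 to 6 counts in each library while Ddx3y was at 47.9 to 81.2 CPM. The covariate was highest in DKO 1, TKO 1 and DKO 2 (−4.82, −5.24 and −5.33). In these libraries the Y-linked gene Kdm5d was at 2.15, 2.29 and 1.11 CPM, against 8.46 to 16.5 CPM in the others. No reading is drawn from calls lost with the covariate.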
